A study of Homo sapiens with 2 samples.

Results

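Chromatin accessibility was examined at 48 genes of glucose and central carbon metabolism in U2OS, a long-established line from a human osteosarcoma. The genes were chosen by name for their place in glucose and lactate transport and its regulation (6 genes), glycolysis (19 genes), the pentose phosphate pathway (6 genes), gluconeogenesis (3 genes), and pyruvate dehydrogenase with the citrate cycle (14 genes). Every peak from 5 kb before to 5 kb after the RefSeq GRCh38 bounds of a gene was counted to that gene, so inner promoters were included. Peaks of the 2 libraries that shared at least 1 bp were merged, which gave 436 regions in the windows of the 48 genes, of 359137 regions in all. The windows held 290 peaks of one library and 383 of the other, of 213285 and 302466.

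The assay was ATAC-seq, in which the Tn5 transposase cuts and tags accessible DNA. Of the 2 libraries, sh-ctrl was made from cells that carried a control short hairpin. The other, sh-VNGD, was made from cells with a hairpin that targets Vanguard, a long non-coding RNA which the study's title calls responsive to glucose deprivation. Both were U2OS cells grown in DMEM with fetal bovine serum, and the labels give no glucose deprivation for either. Each group held 1 library, so no difference below has a replicate check, and what the hairpin did cannot be told apart from what differs between any pair of libraries. ATAC-seq does not measure the level of Vanguard, so the knockdown itself was not checked. In bulk cells, fewer cells with an open site and fewer cuts per cell cannot be told apart.

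The pathway genes are textbook examples of constant and inducible expression. Transporters bring in glucose, glycolysis splits it to pyruvate with a net gain of ATP, lactate dehydrogenase turns pyruvate to lactate, and the mitochondria oxidise pyruvate in the citrate cycle. The pentose phosphate pathway diverts glucose phosphate to NADPH and ribose, and gluconeogenesis runs in the opposite direction, mainly in liver and kidney. Many of the glycolytic genes have CpG-rich promoters, and several are known targets of hypoxia-inducible factors, which bind a core of ACGTG, and of MYC, which binds the E-box CACGTG.

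The libraries differed in depth in a way that touches every value. After duplicates were removed, 22931980 tags were kept for sh-ctrl and 31326715 for sh-VNGD, a ratio of 1.37, and the redundant rates were 0.56 and 0.35. The measure used is the pileup, the number of kept tags over a peak's summit. Pileups were scaled to kept tags, and log2 ratios of sh-VNGD over sh-ctrl were then set relative to the median lead region of 18250 protein-coding genes, which lay at -0.45 before this centring. That median equals the depth ratio, so the median gene had the same unscaled pileup in both libraries, and a relative log2 ratio of 0 stands for equal unscaled pileups. Intervals are exact Clopper-Pearson 95% intervals and cover counting error only. Of marker genes with a listed start, 2 of 4 osteoblast and mesenchymal genes had a region there, RUNX2 at pileups of 38 and 43 and ALPL at 14 and 11. So did 2 of 2 neuronal genes, RBFOX3 at 39 and 50 and SYT1 at 13 in sh-VNGD alone. None did of 1 haematopoietic, 1 epithelial and 2 hepatocyte genes. These few starts do not set the cell type apart.

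Promoters of 45 of the 48 genes were in the RefSeq table (GRCh38.p14), and those of SLC2A3, SLC16A1 and OGDH were not. A few are printed here because the results below turn on them or because they contrast in accessibility. Each is the 250 bases before a start site, 5′ to 3′ on the strand of the gene. PGK1, phosphoglycerate kinase, had the largest ratio among the genes. Capitals mark the hypoxia core ACGTG and its complement CACGT, at 202 and 183 bases before the start (chrX:78103998-78104247, plus strand).
PGK1: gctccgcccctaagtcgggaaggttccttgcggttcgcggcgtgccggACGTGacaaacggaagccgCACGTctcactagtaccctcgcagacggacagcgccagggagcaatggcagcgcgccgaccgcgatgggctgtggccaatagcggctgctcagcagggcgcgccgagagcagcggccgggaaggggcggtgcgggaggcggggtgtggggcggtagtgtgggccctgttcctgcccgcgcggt
LDHA, the lactate dehydrogenase subunit of glycolytic tissue, has a pair of listed starts. In its outer promoter (chr11:18394313-18394562, plus strand) the capitals mark the same core, which lies within 2 E-boxes and at 1 further place. In its second promoter (chr11:18396101-18396350, plus strand) they mark the palindrome of NRF1, a regulator of mitochondrial genes. No other member promoter held that motif.
LDHA, outer start: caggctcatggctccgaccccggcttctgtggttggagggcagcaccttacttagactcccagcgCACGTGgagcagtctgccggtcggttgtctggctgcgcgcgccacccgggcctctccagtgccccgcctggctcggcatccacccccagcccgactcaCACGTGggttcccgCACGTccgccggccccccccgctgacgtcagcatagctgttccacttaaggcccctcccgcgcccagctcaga
LDHA, second start: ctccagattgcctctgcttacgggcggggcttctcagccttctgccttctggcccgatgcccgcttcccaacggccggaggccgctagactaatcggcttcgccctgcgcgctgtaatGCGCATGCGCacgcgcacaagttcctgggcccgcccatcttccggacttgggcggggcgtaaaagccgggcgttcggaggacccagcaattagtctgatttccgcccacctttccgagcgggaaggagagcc
LDHB, the lactate dehydrogenase subunit of heart, had no region at its start (chr12:21657843-21658092, minus strand). Capitals mark a CCAAT box and overlapping TATAAA matches on the opposite strands, which lie 244 and 242 bases before the start.
LDHB: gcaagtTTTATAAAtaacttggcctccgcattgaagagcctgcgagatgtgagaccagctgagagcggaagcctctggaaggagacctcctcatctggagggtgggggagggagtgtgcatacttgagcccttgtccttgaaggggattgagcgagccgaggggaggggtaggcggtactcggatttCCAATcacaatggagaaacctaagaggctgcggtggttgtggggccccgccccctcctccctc
SLC2A1 encodes GLUT1, the basal glucose transporter (chr1:42958869-42959118, minus strand). Capitals mark a CCAAT box 47 bases and TATAAA 31 bases before the start.
SLC2A1: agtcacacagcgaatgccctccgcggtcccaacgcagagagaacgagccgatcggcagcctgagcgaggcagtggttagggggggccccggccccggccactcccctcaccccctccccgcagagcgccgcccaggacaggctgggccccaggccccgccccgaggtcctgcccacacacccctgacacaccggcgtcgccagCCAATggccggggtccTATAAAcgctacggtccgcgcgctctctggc
TXNIP, an inhibitor of glucose uptake that is itself induced by glucose, had the highest start-site pileup of the members in sh-ctrl (chr1:145996580-145996829, minus strand). Capitals mark CCAAT and its complement ATTGG, 105 and 140 bases before the start.
TXNIP: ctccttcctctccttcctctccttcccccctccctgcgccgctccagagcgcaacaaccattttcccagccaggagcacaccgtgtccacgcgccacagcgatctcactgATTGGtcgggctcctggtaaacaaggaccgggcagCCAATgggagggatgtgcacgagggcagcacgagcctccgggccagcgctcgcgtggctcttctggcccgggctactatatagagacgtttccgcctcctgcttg

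Motifs were counted on both strands in all 77 listed promoter windows of the 45 genes, from 250 bases before to 50 after a start, and set beside all 22199 windows of protein-coding genes in the table. The hypoxia core ACGTG was in 23 member windows (29.9%) against 23.05% of all windows, and 16 of the 23 belonged to glycolysis, where 40.0% of 40 windows held it. The E-box CACGTG, which contains the core, was in 7 windows (9.09%) against 8.34%. Those 7 were at ALDOA, ALDOC, GAPDH, HK2, LDHA, PFKFB3 and PDHB, all but the last glycolytic. GGGCGG, the box of SP and KLF factors, was in 53 windows (68.8%) against 56.3%, and CCAAT in 30 (39.0%) against 34.7%. TATAAA was in 4 (5.19%) against 9.47%, CCGGAAG, the ETS core, in 8 (10.4%) against 12.8%, and TGANTCA, the AP-1 site, in 4 (5.19%) against 6.15%. TGACGTCA was in 2 (2.60%) against 2.26%, and the NRF1 palindrome in 1 member window against 333 of all windows. These are matches of letters and do not show binding.

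Member promoters were rich in CpG, with a median GC content of 67.7% and 26 CpGs per window of 300 bases, against 62.3% and 21 over all windows. The windows with and without an accessible region differed in composition. The 57 member windows that touched a region had a median GC content of 70.0% and 30 CpGs, while the 20 without one had 52.7% and 6.5. Over all genes the same split gave 66.0% and 27 CpGs in 13536 windows with a region, and 54.0% and 6 CpGs in 8663 without.

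Of the 45 genes with a listed start, 41 had a region at one (91.1%), against 67.8% of 15843 protein-coding genes with a listed start. All 41 had a peak there in both libraries. Among these 41, the median pileup was 91 tags (sh-ctrl) and 95 (sh-VNGD), against 78 and 76 over all genes with such a region. The remaining 4 genes were GPI, GAPDH, LDHB and IDH2. For GAPDH and IDH2 this followed from the start that the table lists. A region of GAPDH (chr12:6533381-6534794) with pileups of 133 and 114 covered the outer end of the gene, and a region of IDH2 (chr15:90102297-90102920) with 92 and 104 did the same. Just before the outer end of GPI lay a weaker region (chr19:34359153-34359681) with 16 and 18 tags. LDHB had no region at either.

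**Figure D1:**
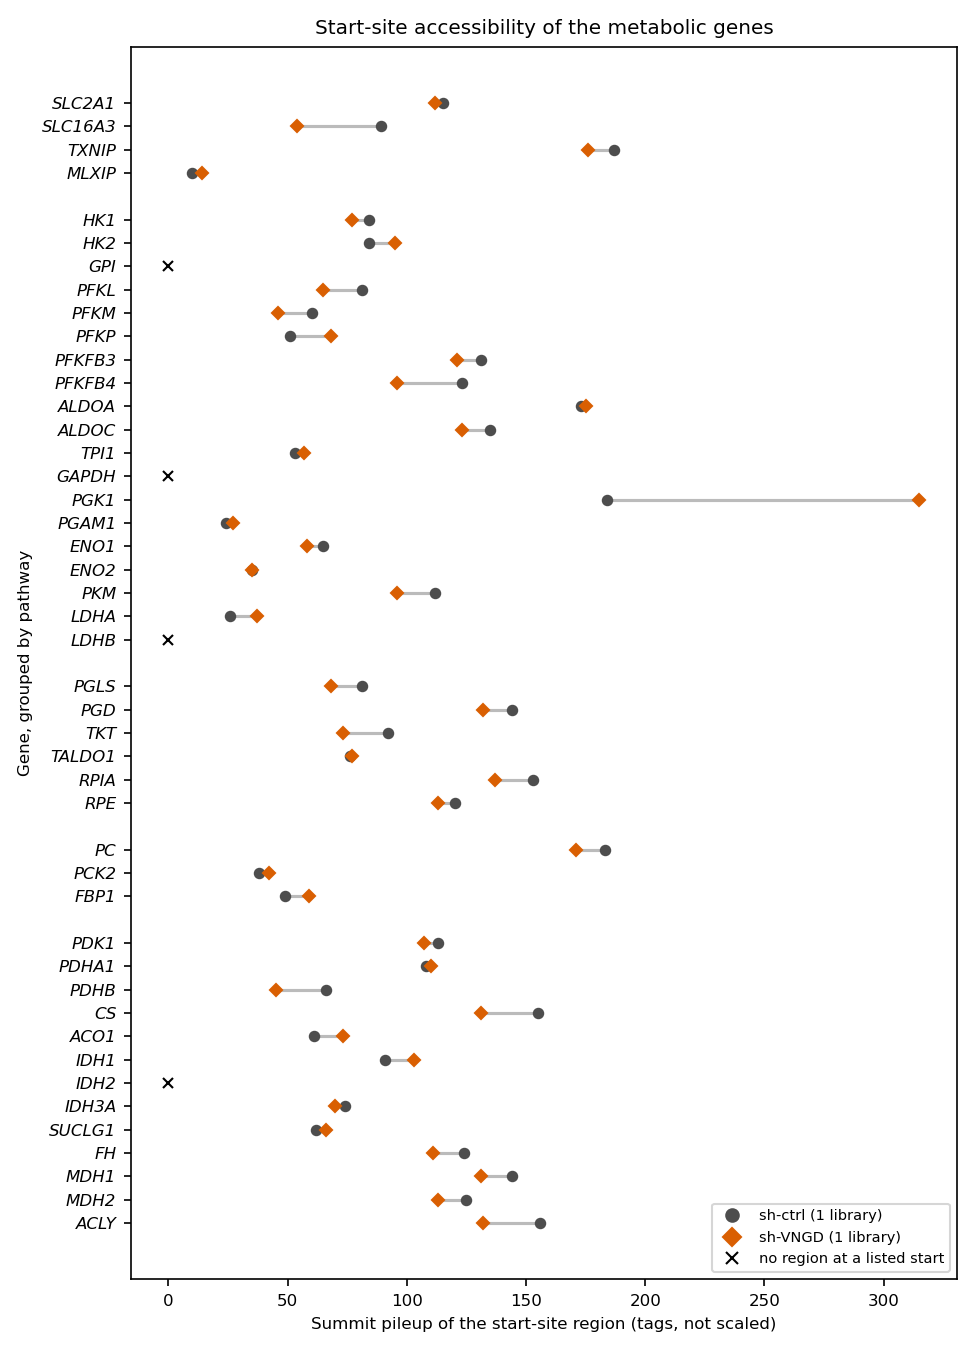
Summit pileup, in unscaled tags, of the highest start-site region of each of 45 genes, by pathway, with sh-ctrl as circles, sh-VNGD as diamonds and a cross at 0 for the 4 genes with no region at a listed start. Most pairs of points lie close together between 10 and 187 tags, and PGK1 stands apart with 184 in sh-ctrl and 315 in sh-VNGD.

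In the transport and regulation group, the SLC2A1 start had a pileup of 115 in sh-ctrl and 112 in sh-VNGD, a relative log2 ratio of -0.04 (interval -0.43 to 0.35). The TXNIP start had 187 and 176, and its ratio was -0.09 (-0.39 to 0.22). Both intervals included the median gene. MLXIP, which encodes the glucose-sensing transcription factor MondoA that drives TXNIP, had a low region at its start, with 10 and 14 tags. SLC16A3 encodes the lactate exporter MCT4, and its start-site region had 89 and 54 tags, the lowest start-site ratio of the members at -0.72 (-1.24 to -0.22). SLC16A3 has 5 listed starts, of which 2 had a region. The other had 52 and 45 tags, and the region with the highest summed scaled pileup within 1 kb of any of its starts had 74 and 82, a ratio of 0.15.

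Among the glycolytic genes, the median start-site pileup of the 16 with a region was 82.5 in sh-ctrl and 72.5 in sh-VNGD. The hexokinases HK1 and HK2, which trap glucose as its phosphate, had 84 and 77, and 84 and 95. The phosphofructokinases, which catalyse the committed step, had 81 and 65 for PFKL, 60 and 46 for PFKM, and 51 and 68 for PFKP. Every one of these 5 intervals included the median gene. PFKFB3 and PFKFB4, which make the bisphosphate that activates phosphofructokinase, had 131 and 121, and 123 and 96. The aldolases were among the most accessible starts, with 173 and 175 for ALDOA and 135 and 123 for ALDOC.

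In lower glycolysis the start-site levels varied. PGAM1, phosphoglycerate mutase, had 24 and 27 tags at its listed start, while a region over its outer end (chr10:97425913-97426389) had 63 and 61. The neuronal enolase ENO2 had 35 in each library. The general enolase ENO1 had 65 and 58, TPI1, triose phosphate isomerase, had 53 and 57, and the pyruvate kinase PKM had 112 and 96. LDHA had 26 and 37, a relative log2 ratio of 0.51 whose interval ran from -0.25 to 1.29. At these pileups the difference was not detectable beyond counting error. The lactate dehydrogenase starts were thus among the less accessible ones of the pathway: LDHB had no region at its start, and the nearest one (chr12:21658158-21658447) had 12 and 16 tags.

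The pentose phosphate genes all had a start-site region in both libraries. PGLS, phosphogluconolactonase, had 81 and 68 tags, and PGD, which makes NADPH, had 144 and 132. TKT and TALDO1, the transketolase and transaldolase of the branch that returns carbon to glycolysis, had 92 and 73, and 76 and 77. RPIA and RPE, which interconvert pentose phosphates, had 153 and 137, and 120 and 113. Their relative log2 ratios ran from -0.33 to 0.02, with a median of -0.14, and every interval included the median gene.

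The 3 gluconeogenic genes differed widely in level. PC, pyruvate carboxylase, had 183 and 171 tags at its outer start. PCK2, the mitochondrial phosphoenolpyruvate carboxykinase, had 38 and 42, and FBP1, fructose bisphosphatase, had 49 and 59.

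Of pyruvate dehydrogenase and the citrate cycle, 12 genes had a start-site region, with median pileups of 110.5 and 108.5. The highest was at ACLY, which splits exported citrate into acetyl-CoA, with 156 and 132, followed by citrate synthase CS with 155 and 131. The malate dehydrogenases MDH1 and MDH2 had 144 and 131, and 125 and 113, and fumarase FH had 124 and 111. PDK1, the kinase that switches off pyruvate dehydrogenase, had 113 and 107. The pyruvate dehydrogenase subunits differed from each other, with 108 and 110 for PDHA1 and 66 and 45 for PDHB, whose ratio of -0.55 had an interval of -1.13 to 0.02. IDH1, the cytosolic isocitrate dehydrogenase, had 91 and 103, IDH3A, a subunit of the mitochondrial NAD enzyme, 74 and 70, the cytosolic aconitase ACO1 61 and 73, and SUCLG1, a subunit of succinyl-CoA ligase, 62 and 66. Pileups were not corrected for gene copy number, so the order of levels between genes is that of the tags.

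Across the 41 start-site ratios the median was -0.09, against -0.02 for all genes. One gene was over 1.5-fold higher in sh-VNGD (PGK1), where 5.29% of all genes were, and one was over 1.5-fold lower (SLC16A3), where 2.52% were. The other 39 lay within 1.5-fold by pileup. By fold enrichment neither PGK1 (0.05) nor SLC16A3 (-0.35) was past 1.5-fold, but the start of PDHB was lower, at -0.73.

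Genes with more than one listed start showed which promoter was open. There were 15 such genes, and of the 77 windows 57 (74.0%) touched a region, against 61.0% of all windows. HK1 has 7 listed starts. The first 4, with GC contents of 46.7 to 52.3% and at most 1 CpG, had no region, the next 2 shared one with 84 and 77 tags, and the last had 31 and 25. PFKM also has 7, of which 4 neighbours shared the region with 60 and 46 tags, and the other 3, with 1 to 7 CpGs each, had none. Of the 3 starts of ALDOA, the third alone had a region, and of the 3 starts of PC the outer one alone. TXNIP had its region at the outer start and none at the inner one. Both starts of PFKFB3 were open, the outer with 96 and 93 and the inner with 131 and 121.

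A listed start with a peak in 1 library occurred at 2 genes, both in sh-VNGD. Over all protein-coding windows 38.5% of regions were in sh-VNGD alone and 16.9% in sh-ctrl alone. The share at listed starts of all genes is not given here. The second start of HK2, whose window holds an E-box, had a region of 31 tags in sh-VNGD with no peak in sh-ctrl, and an adjacent region with 32 and 29 tags was shared. The second start of TPI1 had 34 tags in sh-VNGD alone. A missing peak says that the site did not pass the authors' threshold there, not that it was closed. At LDHA both starts were open in both libraries, the outer with 14 and 22 tags and the second with 26 and 37.

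For each gene the region with the highest summed scaled pileup in its window was taken as its lead region, whichever place it had. All 48 genes had a lead region, and all of these had a peak in both libraries. In 24 genes it lay at a listed start of the gene, in 15 inside the gene, in 6 in the flank, and in 3 at the start of a neighbour. The 3 were GPI at PDCD2L, TPI1 at SPSB2 and PGAM1 at LOC644215. That of PGAM1 also covered the outer end of PGAM1 itself, which is not a listed start. The regions counted inside GAPDH, IDH2, OGDH and SLC16A1 each covered an end of the gene that is not a listed start either. In all, 31 of the 48 windows overlapped another protein-coding gene. The median relative log2 ratio of the 48 was -0.11, with 16 above 0, 31 below and PKM at 0 (141 tags in each library).

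One lead region (2.08%) was over 1.5-fold higher in sh-VNGD, that of PGK1, where 7.01% of 18250 protein-coding genes were. Another 2 (4.17%) were over 1.5-fold lower, those of HK1 and FBP1, where 4.38% were, so the lower count was near the background. ENO1, with 111 and 74 tags, lay at 1.5-fold and was not counted, and so did SLC16A1 in the other direction with 10 and 15. By counting error alone, 1 interval lay wholly above the median gene (PGK1), where 4.43% of genes did, and 4 lay wholly below (HK1, HK2, ENO1 and FBP1), where 6.33% did. Ratios moved with pileup over all genes, from a median of 0.26 at mean pileups under 25 to -0.07 at 150 and above, and 43 of the 48 lead regions had mean pileups of 50 or more.

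The pathway groups had similar medians. They were -0.13 for transport and regulation, -0.05 for glycolysis, -0.11 for the pentose phosphate genes, -0.10 for gluconeogenesis and -0.11 for pyruvate dehydrogenase and the citrate cycle.

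**Figure D2:**
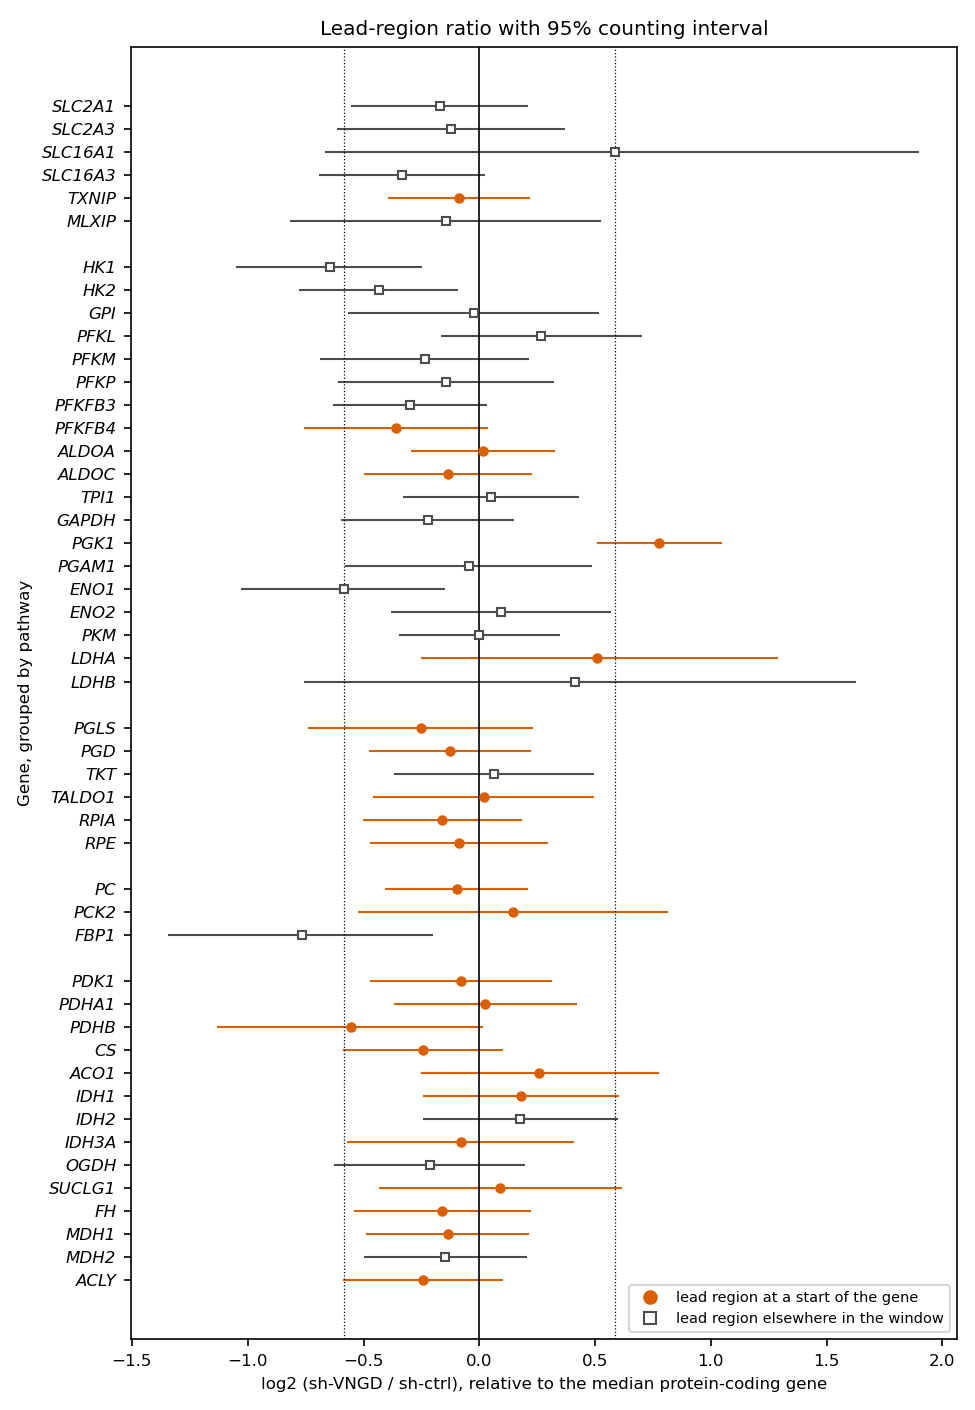
Relative log2 ratio (sh-VNGD over sh-ctrl) of the lead region of each of 48 genes with its 95% counting interval. Filled circles are lead regions at a listed start of the gene, open squares are all others, and dotted lines mark 1.5-fold. PGK1 lies to the right at 0.78, FBP1 (-0.76) and HK1 (-0.64) lie to the left, and SLC16A1, LDHB and LDHA have wide intervals from their low pileups.

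PGK1 had the largest ratio of the lead regions. Its region (chrX:78103734-78104398), which holds the promoter printed above, had pileups of 184 (sh-ctrl) and 315 (sh-VNGD), a relative log2 ratio of 0.78 (0.51 to 1.05). Among 4947 lead regions with summed pileups of at least 200, 3 had a ratio at or above it, PGK1 included, and 11 were over 1.5-fold higher. The local background recovered from the deposited fold enrichment was 8.76 tags (sh-ctrl) and 16.6 (sh-VNGD), and the fold enrichment itself was 19.0 and 17.9. By fold enrichment the relative log2 ratio was therefore 0.05, and PGK1 was no longer over 1.5-fold. The other regions of its window had 23 and 16, and 22 and 24 tags, and 1 of 13 tags was in sh-VNGD alone. With 1 tag kept per position, 400 positions lie in reach of a summit, and 11 regions in the genome reached 300 tags in sh-VNGD. Lead regions on the X chromosome had a median of 0.0 over 679 genes, and that of PDHA1, also on X, was 0.03. The 10000 bp window of that background includes the peak itself. The cells were infected with hairpin constructs, and whether a copy of this promoter in a construct adds tags to the region was not tested.

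HK1, FBP1 and ENO1 had lower lead regions in sh-VNGD inside the gene, while their starts differed less. The HK1 region (chr10:69375213-69376259) had 136 and 87 tags, a ratio of -0.64 (-1.05 to -0.25), against -0.13 at its start. Within 1 kb of any listed start of HK1, however, the highest region (chr10:69332984-69333825) had 125 and 93, a ratio of -0.43. The FBP1 region (chr9:94630289-94631324) had 73 and 43, a ratio of -0.76 (-1.34 to -0.20), against 0.27 at its start. The ENO1 region (chr1:8873598-8874009) had 111 and 74, at -0.58 (-1.03 to -0.15), against -0.16. At HK2 an inner region (chr2:74845215-74846012) had 169 and 125 tags, at -0.44 (-0.78 to -0.09), and the start 0.18. By fold enrichment the 4 regions had relative ratios of -0.06 for HK1, -0.08 for HK2, -0.36 for ENO1 and -0.43 for FBP1, so neither HK1 nor FBP1 was over 1.5-fold lower on that measure. The lead region of PDHB was, at -0.73.

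The remaining lead regions in regulators of flux had intervals that included the median gene. PFKFB3 had 171 and 139 tags in an inner region (chr10:6163368-6164124), a ratio of -0.30 (-0.63 to 0.03). PFKFB4 had 123 and 96 at its start, a ratio of -0.36 (-0.76 to 0.04). SLC2A1 had 125 and 111 in a region beyond the far end of the gene (chr1:42924087-42924865). The lead region of SLC16A3 had 150 and 119 (-0.69 to 0.02), that of MLXIP 42 and 38, and that of SLC2A3, the high-affinity transporter GLUT3, 75 and 69. GAPDH, often used as a control gene, had 133 and 114, at -0.22 (-0.60 to 0.15), a direction that turned to 0.36 by fold enrichment and to 0.54 by the sum of the peaks in the region. The lead regions of OGDH, the oxoglutarate dehydrogenase of the citrate cycle, and MDH2 had 109 and 94, and 145 and 131.

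The windows held 1 region (FH) to 37 (PFKFB3), with a median of 7.5 against 6 over all protein-coding genes, or 18.6 against 14.1 per 100 kb of window. Of the 436 regions, 228 had peaks in each library, 62 (14.2%) in sh-ctrl alone and 146 (33.5%) in sh-VNGD alone. Over all protein-coding windows the last shares were 16.9% and 38.5%. Of the sh-ctrl peaks 78.6% overlapped a peak of sh-VNGD (Wilson 95% interval 73.5 to 82.9%), against 72.8% over all windows, and of the sh-VNGD peaks 61.9% (56.9 to 66.6%), against 54.1%. With equal numbers of peaks in the libraries, the counts were 81 in sh-ctrl alone and 86 in sh-VNGD alone. Windows differed in this: TKT, SLC2A3, ALDOA, PGAM1, PCK2 and TXNIP had regions in sh-ctrl alone and none in sh-VNGD alone.

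Sharing differed by position. Shares by position over all genes are not given here, so this contrast is not shown to be particular to these genes. Starts here are listed ones, and a region over an unlisted gene end counted as inside the gene unless another gene's start touched it. Of 49 regions at a start of the gene, 47 had peaks in both libraries, and of 11 at the start of another gene 10 did. Inside the genes 136 of 301 did, and in the flanks 35 of 75. Regions at starts were wider, with a median of 769 bp, than those inside genes, with 274 bp. They were also higher, with median pileups of 84 and 77 where both libraries had a peak, against 34.5 and 34.5 inside genes. Regions in 1 library alone were mostly low. The median was 14 tags for those in sh-ctrl, with 10 of 62 at 30 or more, and 16 for those in sh-VNGD, with 20 of 146.

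**Figure D3:**
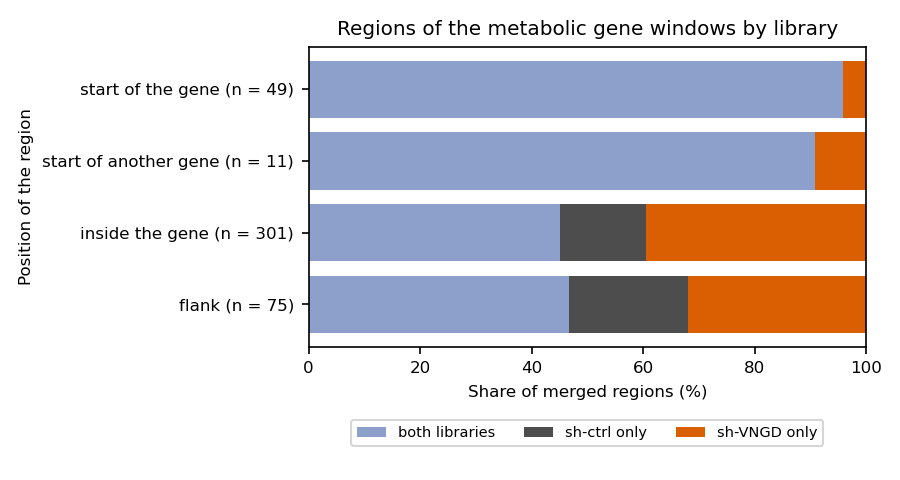
Share of the merged regions of the 48 gene windows that were called in both libraries, only in sh-ctrl or only in sh-VNGD, by position of the region, in percent of the number given on each row. At listed starts of the gene 95.9% were in both libraries, and inside genes 45.2%.

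Of the 228 shared regions, 27 (11.8%) were over 1.5-fold higher in sh-VNGD, where 17.3% of 86204 shared regions in all protein-coding windows were, and 22 (9.65%) were over 1.5-fold lower, where 6.27% were. Past 2-fold, 2 regions were higher and 4 lower, where 3.77% and 1.8% of all such regions were. With at least 30 tags in either library, 160 regions remained, of which 11 were higher, where 12.5% of all such regions were, and 20 (12.5%) were lower, where 10.1% were. These counts depended on the measure. Centred within bands of mean pileup, 10 of the 228 were higher and 35 lower, where 8.03% and 11.8% of all shared regions were, and by fold enrichment 13 were higher and 13 lower, where 8.08% and 5.7% were. Inside genes, which held 136 of the 228, 22 were higher and 16 lower, and the ratios ran from -1.89 to 1.19. At starts of the genes 2 were higher and 1 lower. For these positions the shares over all genes are not given.

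The widest differences are described by gene, and they were picked after their values were seen. The lowest ratio was in IDH2, the mitochondrial NADP-dependent isocitrate dehydrogenase. A region inside it (chr15:90095451-90096004), 6776 bases from the outer start, had pileups of 119 (sh-ctrl) and 32 (sh-VNGD), a ratio of -1.89 (-2.51 to -1.32), with fold enrichments of 10.7 and 4.70. A pair of other inner regions were lower too, with 113 and 68 tags (chr15:90098051-90098476) and 70 and 42 (chr15:90087454-90088094). The region at the outer end, with 92 and 104, was not, and neither was one further inside with 41 and 40.

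SLC2A1 also differed inside the gene. A region 15471 bases from the start (chr1:42943172-42943695) had pileups of 152 (sh-ctrl) and 66 (sh-VNGD), a ratio of -1.20 (-1.64 to -0.78). In sh-ctrl it was thus higher than the start. The neighbouring region (chr1:42941757-42942085) had 66 tags in sh-VNGD and no peak in sh-ctrl, the highest of the regions found in sh-VNGD alone. A further region before the start (chr1:42961672-42961997) had 48 tags in sh-ctrl alone.

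In CS an inner region (chr12:56291408-56291958) had 149 and 66 tags, a ratio of -1.17 (-1.62 to -0.75), while its start had 155 and 131. TALDO1 had 67 and 31 in the flank (chr11:765290-765635), and PFKP had 66 and 37 inside (chr10:3095283-3095998) and 36 and 18 in the flank. In PFKFB3 a region far inside the gene had 58 and 32 tags (chr10:6296928-6298356), whereas another had 34 and 59 (chr10:6279445-6279972). Regions of the same gene thus differed in both directions.

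The highest ratio was inside PDK1, where a region (chr2:172693050-172693460) had pileups of 39 (sh-ctrl) and 89 (sh-VNGD), at 1.19 (0.63 to 1.77). It lay 137888 bases from the outer start, which had 113 and 107. HK1 had an inner region with 23 and 47 tags (chr10:69327905-69328332), MDH2 one with 29 and 58 (chr7:76063470-76063900), ACLY one with 23 and 43 (chr17:41875413-41875978) and FBP1 one with 31 and 57 (chr9:94623281-94623647). In each of these genes the start-site region lay within 1.5-fold. The bounds of genes were known here but not their exons, so these places cannot be given as exonic or intronic.

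**Figure D4:**
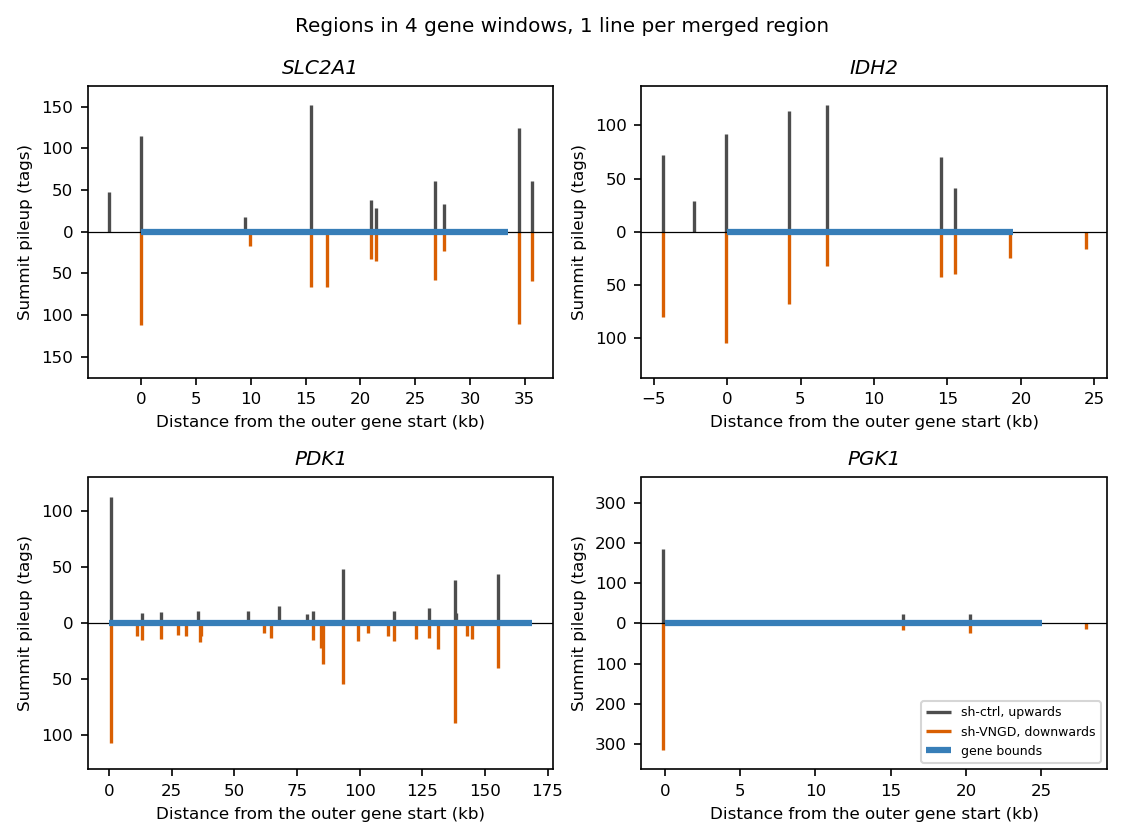
Regions in the windows of SLC2A1, IDH2, PDK1 and PGK1, where each line is a merged region at its summit's distance from the outer gene start in kb, with the unscaled sh-ctrl pileup upwards, the sh-VNGD pileup downwards and the gene in blue. The start regions of SLC2A1 (115 and 112), IDH2 (92 and 104) and PDK1 (113 and 107) are similar in both directions, while inner regions of SLC2A1 (152 and 66) and IDH2 (119 and 32) are shorter downwards and that of PDK1 (39 and 89) longer.

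Regions with a peak in 1 library and a high pileup were few. The highest in sh-ctrl alone was inside PKM (chr15:72228876-72229205), with 76 tags, and TKT had one of 44, PC one of 36 and FBP1 one of 35. In sh-VNGD alone, PFKFB3 had regions of 60 and 46, PFKL one of 50 and TPI1 one of 47. The higher one of PFKFB3 and that of PFKL lay within 1 kb of the start-site region.

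The lactate transporter SLC16A1 and LDHB had the lowest lead regions. SLC16A1 had 10 regions, none above 16 tags, of which 8 were in sh-VNGD alone, and LDHB had 5, of which 4 were. Summed over their windows, the relative log2 ratios were 2.70 and 2.12, and those sums moved with how many weak peaks were called. For the regions that both libraries shared, the intervals included the median gene.

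Genes of the same reactions that are restricted to other tissues served as a comparison. Of 22 isozymes and transporters such as the liver enzymes PKLR and G6PC1, 18 had a listed start and 3 of these a region there (16.7%), against 91.1% of the 45 members. Both sets were chosen with earlier results of these data known, so this contrast is a description and not a test. The 3 isozyme-list genes with a region were PGAM2, the muscle mutase, with 26 and 18 tags, PGK2, the testis kinase, with 21 and 33, and MLXIPL. MLXIPL, which encodes the glucose sensor ChREBP, had 90 and 93. The 22 promoter windows of the 18 genes had a median of 5 CpGs, with a range of 1 to 25, and a median GC content of 53.2%. HK3 and SLC2A4 had a lead region in sh-VNGD alone, SLC2A2 had one in sh-ctrl alone, and PDHA2 had none. Of the 17 with a ratio, 2 were over 1.5-fold higher. PCK1, the cytosolic carboxykinase of liver, had 30 and 63 tags, a ratio of 1.07 (0.42 to 1.75). No start of PCK1 is listed, so whether this region (chr20:57560847-57561182) lies at its promoter is not given here. PGK2 had a ratio of 0.65 (-0.18 to 1.52).

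A second list held 47 further genes of the same pathways with broad expression, such as PGM1, a phosphoglucomutase. Of 41 with a listed start, 40 had a region there (97.6%), with median pileups of 86.5 and 83.5. Their lead regions had a median relative log2 ratio of -0.10, and none was past 1.5-fold. The lowest were BSG, a partner of the lactate transporters, at -0.58, and the mitochondrial carrier SLC25A11 at -0.49, and the highest was PDK4, another pyruvate dehydrogenase kinase, at 0.46. The 48 genes and this list thus had nearly the same median, and both lay slightly below the median of all genes.

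**Figure D5:**
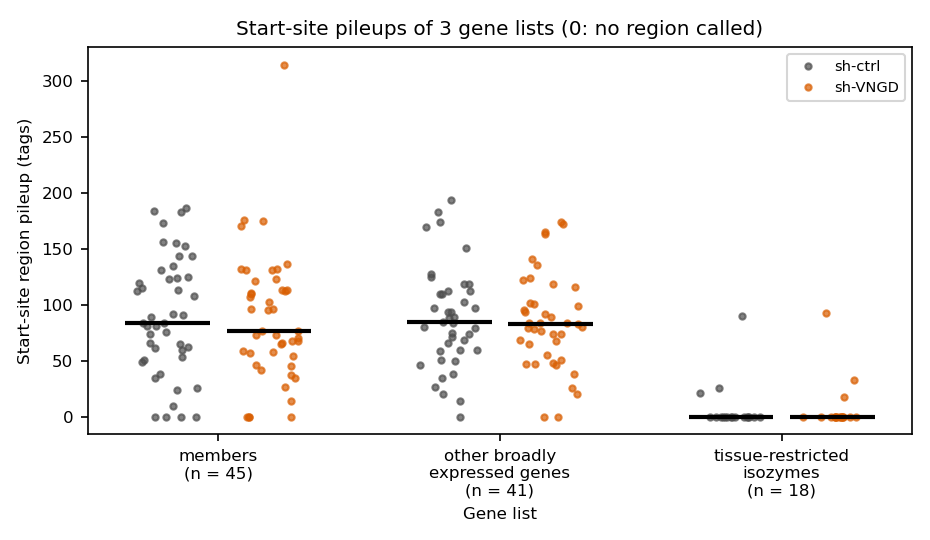
Start-site pileup in unscaled tags, 0 where no region was called, of the genes with a listed start in 3 lists, 1 point per gene and library, with black bars at the medians. The medians are 84 and 77 tags for the 45 members, 85 and 83 for the 41 other broadly expressed genes, and 0 in both libraries for the 18 tissue-restricted ones.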

How the data were processed

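ATAC-seq peaks of 2 U2OS libraries, grouped by the treatment in the labels, were analysed. Per the file headers, MACS 2.1.0.20150731 was run on each library without a control, with a tag shift of 100 bp, an extension to 200 bp, a q cutoff of 0.05, a local window of 10000 bp and 1 tag kept per position. Named in the submitters' processing notes are hg38, GRCh38.p13, deepTools, MACS2 2.1.2 and Bowtie2 2.2.5. Filters on alignments are not given in these sources. The deposited pileup is a signal, the unscaled number of tags at a summit. The deposited −log10 p and q values and the fold enrichment ratio over local background come from the authors' peak caller, and were used to rank or filter peaks and as an alternative measure.

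Peaks on the chromosomes were merged into regions, and each library's highest peak was used. Genes, bounds and starts came from RefSeq tables of GRCh38.p14, which give no exons. Ratios are scaled to 22931980 (sh-ctrl) and 31326715 (sh-VNGD) kept tags. No test is possible with 1 library per group, and tags of 1 position were collapsed, so intervals cover counting error only. Differences over 1.5-fold were counted beside all genes. The ratio and interval code was tested on simulated data. Genes were named where they were members, by the rule of the highest and lowest ratios and pileups, or as said in the text. The members and lists were chosen with earlier results of these data known. Python 3.11.15, pandas 2.3.3 and scipy 1.17.1 were used. Alternatives covered the measure, scaling, centring, window, merging, peak threshold and fold. A few genes of the comparison lists are not reported here by name.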

Additional observations from a re-analysis of the deposited data

How the results depend on the processing

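No paired analysis was possible because each group holds 1 library. The median ratio of all genes before centring was -0.13 by fold enrichment, 0.10 when scaled to all tags read and 0 without scaling, against -0.45 as reported. The count of members higher in sh-VNGD went from 1 to 0 at a fold of 2, by fold enrichment, when centred on all shared regions, and without PGK1. The count lower went from 2 to 0 at a fold of 2, 4 by the counting interval, 1 by fold enrichment (PDHB in place of HK1 and FBP1), 5 when centred on all shared regions and 1 when centred within bands of mean pileup. With equal numbers of peaks, regions in sh-ctrl alone went from 62 to 81 and those in sh-VNGD alone from 146 to 86. The shared percentages were then 72.1% for sh-ctrl and 71.5% for sh-VNGD. Shared regions higher in sh-VNGD went from 27 to 2 at a fold of 2, 11 with at least 30 tags, 10 within bands and 13 by fold enrichment. Those lower went from 22 to 4 at a fold of 2, 35 within bands and 13 by fold enrichment. Over all protein-coding windows 8.03% were higher and 11.8% lower within bands, and 8.08% and 5.7% by fold enrichment. The SLC16A3 start-site ratio reversed to 0.15 when regions within 1 kb were used. The cause was not tested for these changes. Centring within bands, leaving out PGK1 and the alternatives for shared regions were chosen after seeing the data. Changes of scaling cancel in the centring, and they moved no single lead ratio. Centring on all shared regions shifts every gene by the same amount. Of 479 alternative values for single lead regions, these included, 466 moved by less than the mean arm of the counting interval. Another 13 moved further, and 0 changed sign among those over 1.5-fold. Under 1.5-fold, the sign turned beyond that interval for PFKL (-0.32 in a window of 1 kb), ALDOC (0.55 by fold enrichment), GAPDH (0.36 by fold enrichment and 0.54 by the sum of peaks) and RPIA (0.33 by the sum of peaks). Of 82 for start-site regions, 78 moved by less, 3 moved further and 1 reversed. All 25 alternative group medians stayed within the spread of the group, which is wide in a small group. Even so, the sign turned by fold enrichment for transport and regulation (0.03) and glycolysis (0.06), and at starts for gluconeogenesis (0.14). Depth limits single ratios to a median interval width of 0.81 on the log2 scale.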
